A study of Mus musculus with 16 samples.

Results

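Macrophages of the JMJD3 mouse line were compared between the conditional knockout (labelled JMJD3 cKO, 3 libraries) and its wild-type control (labelled JMJD3 WT, 3 libraries). These are 6 of the 16 libraries in the series, chosen by their genotype labels, and all genes with enough reads in them were tested. Marrow of both genotypes was differentiated for 7 days in M-CSF (20 ng/mL), the growth factor of macrophages, and both were then held for 24 h in tumor-conditioned medium (TCM), of which 70% came from cultures of the mouse melanoma line YUMM1.7. No JMJD3 library without TCM is among the 16, so the comparison is one of genotype within TCM. The other 10 libraries belong to the TRAP1 comparison and enter only where named: 3 of wild-type cells kept without TCM (WT naive), 3 of wild-type cells given it (WT TCM) and 4 of TRAP1 knockout cells given it (TRAP1 KO TCM). The sources used here do not give the deleted exons, the Cre driver, the animals' ages, or whether replicates were separate animals or cultures. The p-values therefore measure the spread between libraries, which may be technical.

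JMJD3 is the product of Kdm6b. The enzyme erases H3K27 methylation, the repressive histone mark that Polycomb complex 2 places, and its reaction uses alpha-ketoglutarate as a co-substrate. In macrophages Kdm6b is known as a gene induced by inflammatory signals, and as a factor linked to both inflammatory and alternative activation. Interferon beta, a cytokine that macrophages release after sensing nucleic acids or microbial products, acts through its receptor, the kinases Jak1 and Tyk2 and a transcription factor complex that includes Stat2 and Irf9. That complex binds a short motif, the interferon-stimulated response element (ISRE), near the genes it induces.

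Libraries labelled JMJD3 cKO had lower interferon-induced, inflammatory and immediate-early transcripts than their controls, and higher transcripts of mitosis, DNA replication and ribosomal proteins. Of 13476 genes tested, 2326 were higher (17.3%) and 2402 lower (17.8%) at an adjusted p under 0.05 in edgeR's quasi-likelihood test, 35.1% in either direction. Most differences were small, with a median absolute log2 fold change of 0.279 among the called genes (interquartile range 0.182 to 0.463) and a median of 0.0082 over all genes tested. At least 2-fold differences were found in 113 genes higher (0.839%) and 185 lower (1.37%). The lowest and highest values of the 2 groups did not overlap for 6051 genes, 44.9% of those tested. Among 912 long noncoding genes tested, 25 were higher and 109 lower, whereas the 11406 protein-coding genes gave 2233 and 2206.

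**Figure D1:**
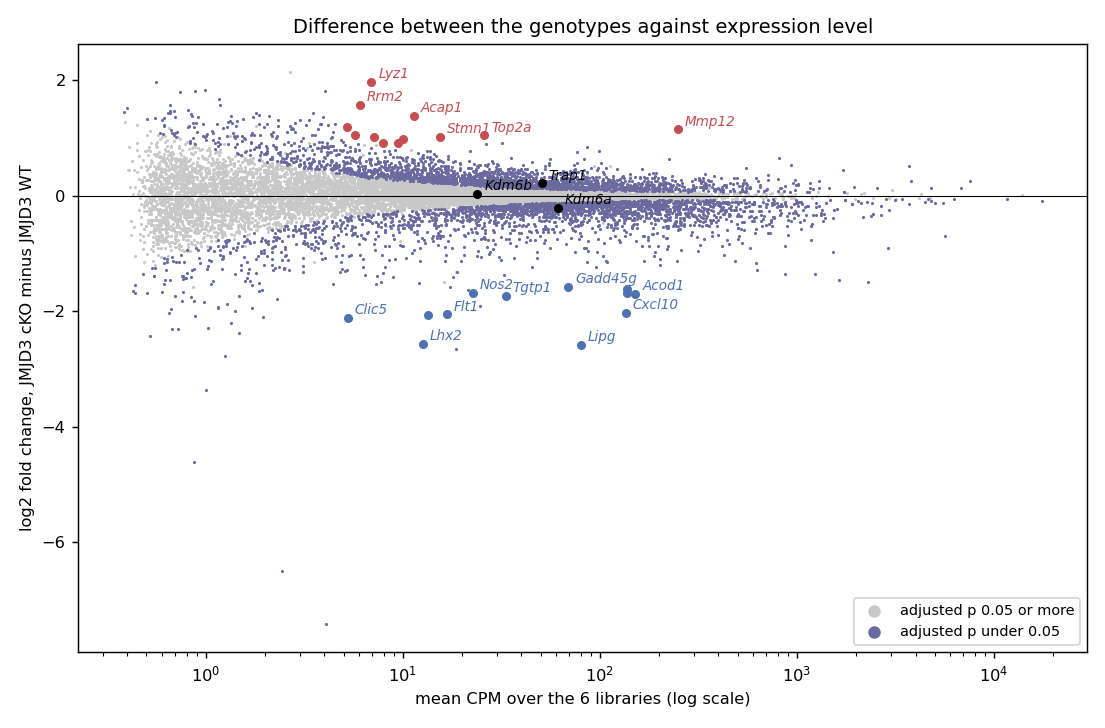
Log2 fold change of each tested gene (JMJD3 cKO minus JMJD3 WT, vertical axis) against its mean level in CPM (log axis) over the 6 libraries, with called genes in purple, the others in grey, and the genes of largest change with at least 5 CPM, pseudogenes and unnamed loci left out, in red (higher) or blue (lower). The deepest falls among the labelled genes reach -2.58 (Lipg), the strongest rise among them is 1.97 (Lyz1), and Kdm6b itself lies at 0.04; the lowest point is a gene with 0 counts in the cKO, drawn at its upper limit.

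Some properties of the libraries moved with the genotype. Totals were 15815651 to 17544225 counts in JMJD3 WT and 19511053 to 22426820 in JMJD3 cKO, so every cKO library was deeper. With all libraries thinned to the smallest total, 2260 genes were higher and 2329 lower. Mitochondrially encoded genes took 0.744 to 0.786% of the counts in JMJD3 WT and 0.821 to 0.865% in JMJD3 cKO. Of 12 macrophage markers all 12 had counts in both groups, with a summed level of 23800 to 24100 CPM in JMJD3 WT and 20300 to 20900 CPM in JMJD3 cKO (CPM are counts adjusted for library size). The sum is moved mostly by Lyz2 (6990 ± 206 to 4330 ± 71.9 CPM), and of the 12 markers 4 were higher and 6 lower with a median log2 fold change of -0.05. Of 8 melanoma cell markers 5 had counts, at a summed 103 to 106 CPM in JMJD3 WT and 89.1 to 94.8 CPM in JMJD3 cKO. Nearly all of that was Mitf (98.4 ± 1.32 to 87.2 ± 3.31 CPM, adjusted p = 0.00058), a gene that macrophages are known to express too, and Tyr, Tyrp1 and Sox10 had 0 counts. Both groups carried Xist and had 0 counts of 4 Y-linked genes. In bulk RNA, fewer cells of a type and less RNA per cell cannot be told apart.

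In all 6 promoters were chosen to show the sequence features that the 2 main groups of genes share, with 1 that stands apart from them. Each window runs from 250 bases before to 50 after a transcription start in RefSeq (build GRCm38.p6), is written 5′ to 3′ on the gene's strand, and was the window nearest to the annotated gene start. Capitals mark the ISRE letters, GAAA and GAAA with any 2 letters between them, on either strand in the first group, which is lower in the cKO.
Cxcl10, chr5:92348840-92349139, minus strand: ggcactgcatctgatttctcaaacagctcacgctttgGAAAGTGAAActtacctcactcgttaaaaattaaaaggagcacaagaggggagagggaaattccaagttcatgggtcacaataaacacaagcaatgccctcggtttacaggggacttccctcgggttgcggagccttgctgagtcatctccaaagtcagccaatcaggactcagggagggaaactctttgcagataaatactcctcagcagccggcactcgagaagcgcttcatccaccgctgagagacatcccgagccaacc
Rsad2, chr12:26456403-26456702, minus strand: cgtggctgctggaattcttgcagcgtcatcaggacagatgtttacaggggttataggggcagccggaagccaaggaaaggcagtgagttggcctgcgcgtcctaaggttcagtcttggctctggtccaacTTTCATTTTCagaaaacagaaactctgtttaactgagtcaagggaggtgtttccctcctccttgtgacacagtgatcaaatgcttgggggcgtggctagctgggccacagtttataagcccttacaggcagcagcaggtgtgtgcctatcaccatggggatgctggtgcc
Isg15, chr4:156200769-156201068, minus strand: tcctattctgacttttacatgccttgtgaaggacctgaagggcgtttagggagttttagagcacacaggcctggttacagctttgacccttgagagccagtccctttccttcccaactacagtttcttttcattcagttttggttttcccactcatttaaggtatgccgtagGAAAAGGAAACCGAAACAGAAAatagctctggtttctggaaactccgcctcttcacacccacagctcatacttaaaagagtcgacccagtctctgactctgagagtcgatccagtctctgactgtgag

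Cxcl10 encodes a chemokine that attracts T cells, Rsad2 the antiviral enzyme viperin, and Isg15 a ubiquitin-like antiviral protein. Cxcl10 and Rsad2 hold 1 match each and Isg15 holds 3 that overlap. In the second group, which is higher in the cKO, capitals mark TTTGAA on either strand. These are the letters of the cell cycle genes homology region (CHR), at which a repressor complex is known to act in resting cells.
Cdk1, chr10:69352863-69353162, minus strand: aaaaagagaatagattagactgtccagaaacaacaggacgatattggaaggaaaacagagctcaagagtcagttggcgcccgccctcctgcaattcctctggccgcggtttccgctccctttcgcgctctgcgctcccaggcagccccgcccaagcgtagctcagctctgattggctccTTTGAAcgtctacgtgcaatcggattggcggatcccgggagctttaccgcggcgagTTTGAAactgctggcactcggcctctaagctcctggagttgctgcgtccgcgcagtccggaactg
Top2a, chr11:99024140-99024439, minus strand: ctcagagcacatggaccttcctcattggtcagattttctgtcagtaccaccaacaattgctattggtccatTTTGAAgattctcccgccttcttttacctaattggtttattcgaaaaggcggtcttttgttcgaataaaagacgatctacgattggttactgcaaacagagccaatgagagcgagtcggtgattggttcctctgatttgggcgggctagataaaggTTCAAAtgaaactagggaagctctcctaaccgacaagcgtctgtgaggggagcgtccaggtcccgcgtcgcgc

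Cdk1 is the kinase that starts mitosis and Top2a the topoisomerase that untangles replicated chromosomes. The last window is that of Lhx2, a LIM-homeobox regulator and one of the deepest falls. Its 34 CG pairs are in capitals because dense unmethylated CG is where Polycomb complex 2 is known to settle.
Lhx2, chr2:38339031-38339330, plus strand: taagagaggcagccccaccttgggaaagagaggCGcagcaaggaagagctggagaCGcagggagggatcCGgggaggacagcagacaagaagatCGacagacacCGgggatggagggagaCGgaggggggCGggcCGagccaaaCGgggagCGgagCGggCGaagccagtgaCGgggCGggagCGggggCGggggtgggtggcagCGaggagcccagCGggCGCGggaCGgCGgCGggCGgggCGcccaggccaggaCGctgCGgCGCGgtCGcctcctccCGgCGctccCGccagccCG

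A promoter window was found for 9546 of the 13476 tested genes. ISRE letters were present in 24 of 35 windows of interferon-induced genes (68.6%) and in 324 of all 9546 (3.39%). They were in 13 of 108 windows of genes at least 2-fold lower (12%), and in 3 of 71 windows of genes at least 2-fold higher (4.23%). CHR letters were present in 16 of 21 windows of mitosis genes (76.2%) and in 1152 of all windows (12.1%). They were in 28 of 71 windows of genes at least 2-fold higher (39.4%), beside 16 of 108 of those at least 2-fold lower (14.8%). A match of either motif can share its GAA letters with a match of the other, and the NF-kB letters, GGGA and TTCC with any 2 letters between them, were in 6 of 108 windows of genes at least 2-fold lower (5.56%) and in 1.53% of all. The ratio of observed to expected CG pairs reached 0.6 in 32.4% of the windows of genes at least 2-fold lower, beside 72.5% of all windows and 69% of those of genes at least 2-fold higher. With 34 CG pairs and a ratio of 0.885, Lhx2 was among the CG-rich windows. A match is a description of these letters only, and neither binding nor histone marks were measured.

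Kdm6b was examined first, because it is the targeted gene. Kdm6b (ENSMUSG00000018476, chromosome 11, 69398508 to 69413675, minus strand, GRCm38) was at 25.2, 23.7 and 22 CPM in the JMJD3 WT libraries and at 24.7, 23.1 and 24.9 CPM in JMJD3 cKO. The groups overlapped, and the log2 fold change was 0.04 (SE 0.07, adjusted p = 0.75, edgeR). Reads of all exons were counted together, which leaves a partial deletion unchecked, so the genotype rests on the labels alone, and every direction given here is that of the libraries labelled JMJD3 cKO. Kdm6a, which encodes the related demethylase UTX, was at 65.8, 66.9 and 63.3 CPM in JMJD3 WT and at 57.3, 56.7 and 55.9 CPM in JMJD3 cKO. It fell by 0.21 on the log2 scale (SE 0.05, adjusted p = 3e-04) with no overlap. Trap1, the mitochondrial chaperone gene that the other knockout of the series removes, was at 46.8 ± 1.56 CPM (SD, n = 3) and 54.4 ± 0.359 CPM, a log2 fold change of 0.22 (adjusted p = 0.00051).

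Of 14 tested genes of the H3K27 demethylases and Polycomb complex 2, 5 were higher and 4 lower (median log2 fold change 0.05). Jarid2, an accessory subunit that guides the complex, fell from 70.2 ± 0.582 to 53.5 ± 1.77 CPM (-0.39, adjusted p = 2.1e-09). Phf19, another accessory subunit, rose from 3.16 ± 0.189 to 5.38 ± 0.615 CPM (0.76, adjusted p = 0.00019). Without the third cKO library, 2 genes of the list were called higher. Polycomb complex 1 had 3 of 19 genes higher and 7 lower, among them Pcgf5, a subunit that defines a variant of it (-0.46), and the complexes that methylate lysine 4 of histone H3 had 1 of 12 higher and 5 lower. Over these 3 lists the calls are to be read beside the 35.1% of all genes called.

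Developmental regulators are the textbook targets of this histone mark, and most were silent here. Of 61 listed homeobox and developmental genes, 51 had too few reads to be tested in either genotype. Lhx2 (chromosome 2, from 38339281) was the exception in size, at 20.6, 21.5 and 22.7 CPM in JMJD3 WT and 3.09, 3.35 and 4.42 CPM in JMJD3 cKO. All 3 cKO libraries were under every control library, 5.91-fold lower in the mean (log2 fold change -2.56, SE 0.12, adjusted p = 2.9e-22). Cdkn1c, which encodes the cell cycle inhibitor p57, rose from 5.66 ± 0.649 to 8.17 ± 1.07 CPM (0.53, adjusted p = 0.0013).

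**Figure D2:**
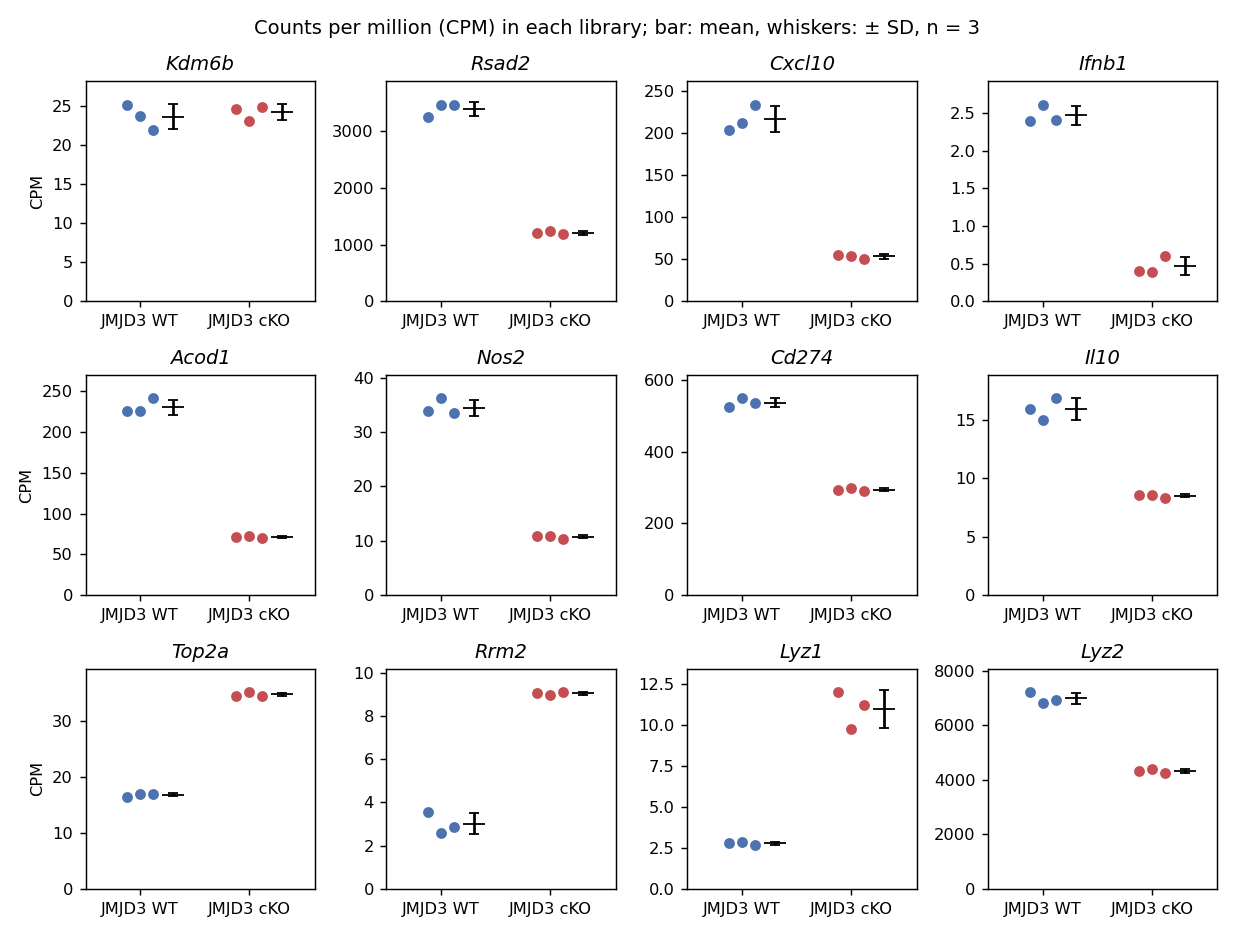
Level of 12 genes in each library in CPM (vertical axes, starting at 0), with JMJD3 WT in blue and JMJD3 cKO in red, and beside the points the mean as a bar with ± SD (n = 3). The genotypes overlap for Kdm6b and for none of the other genes; Rsad2 falls from 3400 to 1200 CPM and Rrm2 rises from 3.02 to 9.05 CPM in the mean.

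Interferon transcripts differed in a single direction. Ifnb1, the gene of interferon beta itself, had 41, 40 and 40 counts in the JMJD3 WT libraries and 8, 8 and 14 in the deeper JMJD3 cKO libraries. Scaled for depth the ratio was 5.14, with an exact 95% interval of 3.42 to 7.94 that covers counting error only (log2 fold change -2.37, SE 0.31, adjusted p = 3.7e-08). The receptor chains did not pass the test: Ifnar1 was at 209 ± 2.81 and 213 ± 4.12 CPM (adjusted p = 0.56) and Ifnar2 at 139 ± 3.79 and 141 ± 3.2 CPM (adjusted p = 0.74). Of the receptor's kinases, Tyk2 fell from 200 ± 6.37 to 154 ± 4.31 CPM (-0.38, adjusted p = 1.2e-12), while Jak1 did not pass (0.04, adjusted p = 0.37). Stat2 fell from 1080 ± 13.3 to 793 ± 2.73 CPM (-0.44, adjusted p = 1.6e-19), and its partner Irf9 was at 123 ± 2.44 and 122 ± 1.52 CPM (-0.01, adjusted p = 0.85). Upstream of the ligand, the factors Irf7 (-0.34) and Irf1 (-0.55) and the kinase Tbk1 (-0.13, adjusted p = 0.0026) were lower. The adaptors Tmem173, known as STING (0.01, adjusted p = 0.91), and Mavs (-0.04, adjusted p = 0.63) did not pass. Nor did the factor Irf3 (-0.14, adjusted p = 0.062) or the sensor Cgas (-0.16, adjusted p = 0.075). Irf3 was called in the fit of all 16 libraries (adjusted p = 0.032), and Cgas without the third cKO library (adjusted p = 0.022).

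Of 48 listed interferon-induced genes 47 were tested. All but Irf9 were lower, 46 against a background of 17.8% lower, with a median log2 fold change of -0.51 and 8 genes at least 2-fold lower. Rsad2 was at 3250, 3470 and 3470 CPM in JMJD3 WT and at 1200, 1240 and 1180 CPM in JMJD3 cKO (-1.5, SE 0.03, adjusted p = 2.5e-37). Cmpk2, a mitochondrial nucleotide kinase induced with it, was at 2280, 2430 and 2460 CPM against 873, 881 and 849 CPM (-1.46, SE 0.03, adjusted p = 7.6e-37). In both genes every cKO library lay far under every control library. Ifit2, which binds foreign RNA, fell from 3800 ± 81.8 to 2020 ± 66.1 CPM, and Isg15 from 752 ± 2.02 to 480 ± 21.5 CPM. The chemokine Cxcl10 was at 204, 212 and 234 CPM in JMJD3 WT and at 55.3, 54.2 and 50.5 CPM in JMJD3 cKO (-2.03, SE 0.05, adjusted p = 1.3e-24). Its neighbour Cxcl11, annotated as a polymorphic pseudogene, fell from 32 ± 1.05 to 5.06 ± 0.4 CPM (-2.66). Tgtp1, an immunity GTPase, fell from 51 ± 2.56 to 15.4 ± 1.37 CPM (-1.73) and has close copies between which shared reads may have been split.

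MHC class I presentation, which interferon also raises, had 20 of 23 genes lower and 2 higher (median -0.25). Among all genes tested 17.8% were lower and 17.3% higher. H2-T22, a non-classical class I molecule, fell from 870 ± 11.8 to 557 ± 4.61 CPM (-0.64), and Tap1, a chain of the peptide transporter, from 695 ± 17.8 to 515 ± 1.85 CPM (-0.43). The higher genes were the chaperone Canx (0.13) and the peptide-trimming enzyme Erap1 (0.15). MHC class II presentation had 2 of 14 genes higher and 2 lower, 14.3% each, which is not above the shares of all genes. H2-Aa, an alpha chain, rose from 59.7 ± 3.52 to 73.5 ± 2.7 CPM (0.3), whereas the class II activator Ciita fell from 4.26 ± 0.58 to 2.81 ± 0.32 CPM, a call lost without the second control library (-0.49, adjusted p = 0.062).

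Inflammatory effectors were lower too. Of 21 tested genes of classical activation, 13 were lower and 2 higher, Nlrp3 (0.24) and Ccl3 (0.22), with a median of -0.49. Over all genes tested the shares were 17.8% lower and 17.3% higher. Acod1, which makes itaconate from a Krebs cycle intermediate, was at 225, 225 and 241 CPM in JMJD3 WT and at 71.5, 72 and 69.4 CPM in JMJD3 cKO (-1.7, SE 0.04, adjusted p = 6.7e-34). Nos2, the inducible nitric oxide synthase, was at 33.8, 36.2 and 33.5 CPM against 10.9, 10.9 and 10.4 CPM (-1.68, SE 0.08, adjusted p = 3.9e-22). Neither gene's groups overlapped, and the means were 3.25-fold (Acod1) and 3.21-fold (Nos2) lower. Ass1, which regenerates arginine for nitric oxide synthesis, fell from 32.8 ± 2.38 to 19.6 ± 1.97 CPM (-0.74), while Arg1, the arginase of alternatively activated cells, was at 9.07 ± 1.24 and 9.05 ± 0.884 CPM (adjusted p = 0.98).

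Signalling genes that respond quickly to such stimuli showed the same direction. Immediate-early factors had 14 of 18 genes lower and 1 higher (median -0.36). The counts of this paragraph stand beside 17.8% lower and 17.3% higher among all genes. Dusp1, a phosphatase that shuts off MAP kinases, fell from 230 ± 8.25 to 105 ± 4.43 CPM (-1.13) and Atf3 from 555 ± 16.9 to 328 ± 3 CPM (-0.76). The 1 higher gene, Egr2, was at 2.28 ± 0.417 and 3.46 ± 0.458 CPM, a call lost without the first control library (adjusted p = 0.12) and without the first or the third cKO library. NF-kB subunits and feedback genes had 13 of 22 lower and 0 higher, led by the adaptor Traf1 (49.7 ± 1.13 to 23.8 ± 2.58 CPM, -1.07). Toll-like receptors and inflammasome genes had 19 of 32 lower and 4 higher, with the DNA receptor Tlr9 at 260 ± 8.28 and 160 ± 3.4 CPM (-0.7). Mir155hg, the host transcript of the inflammatory microRNA miR-155, had 42, 25 and 41 counts in JMJD3 WT and 4, 9 and 7 in JMJD3 cKO (-2.77, adjusted p = 2.7e-08), a gene named after its values were seen.

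Chemokines had 10 of 19 genes lower and 5 higher (median -0.32). All counts of this paragraph are to be read beside 17.8% lower and 17.3% higher of all genes. Besides Cxcl10, the monocyte attractants Ccl7 fell from 670 ± 26.2 to 383 ± 4.53 CPM (-0.81) and Ccl12 from 276 ± 17.4 to 128 ± 1.57 CPM (-1.1). Interleukins and receptors had 17 of 26 lower and 5 higher (median -0.35). Il1rn, the antagonist of interleukin-1, was at 841, 930 and 888 CPM in JMJD3 WT and at 366, 366 and 357 CPM in JMJD3 cKO (-1.29, SE 0.03, adjusted p = 3.6e-32). Of 8 monocyte markers, all tested, 3 were lower, 1 was higher and 4 did not pass. Their summed level was 1360 to 1450 CPM in JMJD3 WT and 904 to 993 CPM in JMJD3 cKO, of which Ms4a4c made 1100 ± 36.7 and 695 ± 37.5 CPM. Their part in these results was not tested.

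Genes by which tumor macrophages restrain T cells were mostly lower. Of 27 tested checkpoint and suppressive genes, 16 were lower and 5 higher (median -0.18, range -2.2 to 1.81). At least 2-fold differences were found in 1 higher and 2 lower genes, and the genes named below all fell. These are 59.3% lower and 18.5% higher, beside 17.8% and 17.3% of all genes, so only the lower share stood above the background. Cd274, the ligand PD-L1, was at 525, 549 and 537 CPM in JMJD3 WT and at 293, 298 and 290 CPM in JMJD3 cKO (-0.87, SE 0.03, adjusted p = 8.4e-28). Il10, an anti-inflammatory cytokine, was at 15.9, 15 and 16.8 CPM against 8.58, 8.57 and 8.32 CPM (-0.91, SE 0.1, adjusted p = 3.3e-10). For both, all cKO libraries were under all controls. Lilrb4a, an inhibitory receptor, fell from 882 ± 22.2 to 617 ± 13.4 CPM (-0.52), and Vegfa, the angiogenic growth factor, from 140 ± 5.23 to 99.2 ± 2.32 CPM (-0.5).

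Alternative activation showed no shared direction, with 6 of 18 tested genes higher and 7 lower (median 0.04). That is 33.3% and 38.9%, beside 17.3% and 17.8% of all genes. Mrc1, the mannose receptor, rose from 880 ± 16.5 to 1070 ± 15 CPM (0.28). Chil3, which encodes Ym1, rose from 3.54 ± 0.688 to 5.89 ± 0.66 CPM (0.73). Il4ra, the interleukin-4 receptor chain, fell from 654 ± 5.68 to 512 ± 7.48 CPM (-0.35) and the transglutaminase gene Tgm2 from 206 ± 5.75 to 126 ± 4.7 CPM (-0.7). Irf4, a factor of this state, was at 2.09 ± 0.415 and 2.29 ± 0.267 CPM (adjusted p = 0.71). Retnla had 1 count in the 6 libraries and was not tested.

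**Figure D3:**
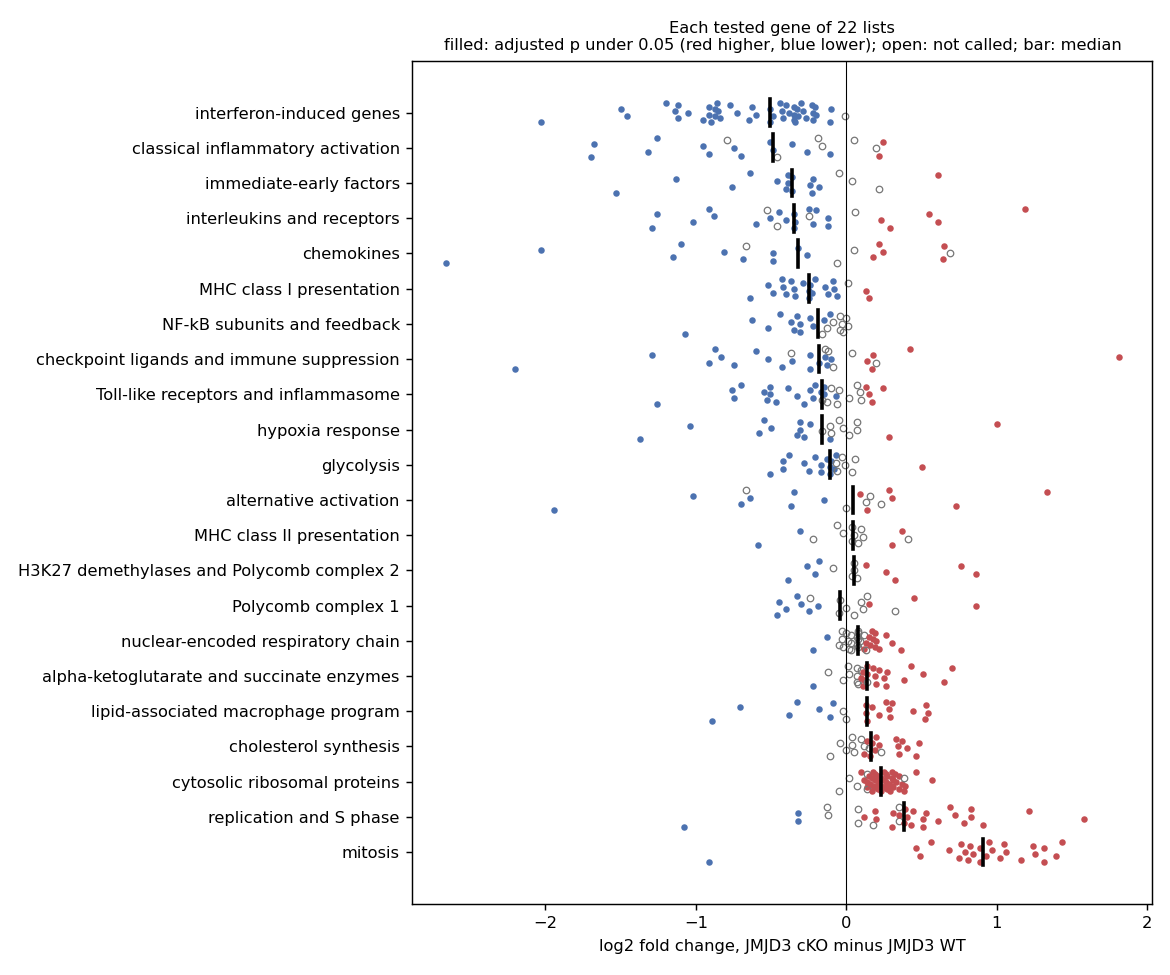
Log2 fold change (horizontal axis, JMJD3 cKO minus JMJD3 WT) of each tested gene in 22 gene lists, 1 list per line, filled red (higher) or blue (lower) where called, open where not, with a bar at the list's median. Interferon-induced genes lie at or left of 0 with a median of -0.51, and mitosis genes lie right of 0 with a median of 0.91 apart from Tpx2 at -0.91.

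Proliferation genes were higher. Of 26 mitosis genes all were tested and 25 were higher, against a background of 17.3%, with a median log2 fold change of 0.91 and 10 genes at least 2-fold higher. Top2a was at 16.5, 17 and 17 CPM in JMJD3 WT and at 34.6, 35.2 and 34.6 CPM in JMJD3 cKO (1.05, SE 0.07, adjusted p = 6.8e-17). The proliferation marker Mki67 was at 17.5, 17.5 and 20.3 CPM against 37.4, 33 and 32.3 CPM (0.89, SE 0.07, adjusted p = 1.3e-13). Every cKO library was above every control for both. Foxm1, a transcription factor of the late cell cycle, rose from 3.7 ± 0.553 to 7.73 ± 0.79 CPM (1.06), and Bub1b, a spindle checkpoint kinase, from 4.75 ± 0.245 to 9.6 ± 0.639 CPM (1.02). Tpx2, a spindle assembly factor, was the exception and fell from 73.2 ± 3.07 to 38.9 ± 2.67 CPM (-0.91, adjusted p = 6.9e-19).

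Replication and S phase had 23 of 33 genes higher and 3 lower (median 0.38), beside 17.3% and 17.8% of all genes. Rrm2, the regulated subunit of the enzyme that makes deoxynucleotides, was at 3.56, 2.61 and 2.88 CPM in JMJD3 WT and at 9.08, 8.96 and 9.1 CPM in JMJD3 cKO (1.58, SE 0.14, adjusted p = 1.8e-12). Clspn, a replication checkpoint adaptor, rose from 3.17 ± 0.261 to 7.21 ± 0.486 CPM (1.19), and Uhrf1, which carries DNA methylation through replication, from 10.1 ± 1.09 to 17.4 ± 1.3 CPM (0.78). Among the lower genes were the replication clamp Pcna (502 ± 35.4 to 403 ± 2.3 CPM, -0.32) and the repressor E2f8 (9.84 ± 0.799 to 7.89 ± 0.698 CPM, -0.32). The call of E2f8 was lost without the third control library (adjusted p = 0.13) and without the second or the third cKO library. Mxd1, which opposes Myc and is known from cells leaving the cycle, was at 194, 209 and 222 CPM against 67.3, 69.9 and 66.2 CPM (-1.62, SE 0.04, adjusted p = 1.2e-28). Gadd45g, a growth-arrest gene, fell from 104 ± 2.64 to 34.5 ± 1.5 CPM (-1.58).

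Ribosomal protein genes were mostly higher by small amounts, and the counts of this paragraph stand beside 17.3% higher and 17.8% lower among all genes. Of 49, 43 were higher, 0 lower and 6 did not pass (median 0.23, range -0.05 to 0.57), for example Rps2 from 298 ± 3.74 to 387 ± 4.47 CPM (0.38). Cholesterol synthesis had 14 of 24 higher and 0 lower (median 0.17), or 9 higher with DESeq2, with the epoxidase Sqle at 23 ± 2.76 and 31.7 ± 2.65 CPM (0.46). Enzymes that make or use alpha-ketoglutarate or succinate had 18 of 29 higher and 1 lower, the transaminase Got1 (-0.22). The serine pathway enzyme Psat1, which releases alpha-ketoglutarate, rose from 9.65 ± 0.327 to 15.7 ± 1.35 CPM (0.7) and Idh2 from 29.4 ± 2.16 to 38.2 ± 3.28 CPM (0.38). The nuclear-encoded respiratory chain had 13 of 34 higher (38.2%) and 2 lower (5.88%), by small amounts (median 0.08). Glycolysis went the other way, with 15 of 22 lower and 1 higher (median -0.11), among them the lactate exporter Slc16a3 (166 ± 6.57 to 124 ± 2.2 CPM, -0.42). Hypoxia-responsive genes had 11 of 21 lower and 2 higher, with the oxygen sensor Egln3 at 9.25 ± 0.485 and 3.59 ± 0.834 CPM (-1.37).

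The 12 genes of largest rise and of largest fall, restricted to means from 5 CPM upward and groups that do not overlap, and leaving out pseudogenes (Cxcl11 among them, by its annotation) and predicted or unnamed loci, include several outside these lists. Lipg, the endothelial lipase, was at 131, 140 and 139 CPM in JMJD3 WT and at 22.8, 22.4 and 23.2 CPM in JMJD3 cKO (-2.58, SE 0.05, adjusted p = 1.5e-36). Slco3a1, an organic anion transporter, was at 202, 217 and 211 CPM against 61.6, 65.1 and 67.8 CPM (-1.69, SE 0.04, adjusted p = 7.3e-33). For both, the difference was many times the spread between replicates. Clic5, a chloride channel protein, fell from 8.53 ± 1.29 to 1.97 ± 0.366 CPM (-2.11). Pira2, an activating receptor with many near-identical relatives, fell from 21.6 ± 2.69 to 5.15 ± 0.28 CPM (-2.07), and how reads shared within that family were counted is not known. Flt1, a receptor for VEGF, fell from 26.9 ± 2.2 to 6.48 ± 0.134 CPM (-2.05). Markers of endothelial cells moved with it, all 4 tested of 6 lower, with a summed level of 196 to 202 CPM in JMJD3 WT and 94.9 to 104 CPM in JMJD3 cKO, of which the VEGF receptor Kdr made 134 ± 0.408 and 56.8 ± 3.38 CPM. None of the 6 markers was at 0 in both groups, and their part in the result was not tested. Among all genes 17.8% were lower.

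Lyz1 and Lyz2 are neighbouring lysozyme genes, and they moved in opposite directions. Lyz2, the macrophage lysozyme, was at 7220, 6820 and 6940 CPM in JMJD3 WT and at 4340, 4390 and 4250 CPM in JMJD3 cKO (-0.69, SE 0.02, adjusted p = 3e-27). Lyz1 was at 2.8, 2.88 and 2.7 CPM against 12, 9.75 and 11.2 CPM (1.97, SE 0.14, adjusted p = 9.3e-16). The pair is so alike that reads may have been assigned to either, which makes the Lyz1 value uncertain. Mmp12, the macrophage elastase, was at 155, 145 and 162 CPM in JMJD3 WT and at 335, 347 and 342 CPM in JMJD3 cKO (1.15, SE 0.03, adjusted p = 3.4e-29). Stmn1, a microtubule regulator of dividing cells, rose from 10.2 ± 0.318 to 20.7 ± 1.31 CPM (1.02), Pclaf, a Pcna partner, from 5.48 ± 1.28 to 10.4 ± 1.3 CPM (0.92) and Gpr183, an oxysterol receptor that guides migration, from 6.73 ± 0.268 to 13.3 ± 1.09 CPM (0.99). S100a9, a calcium-binding protein of neutrophils and monocytes, rose from 6.58 ± 0.879 to 12.4 ± 0.168 CPM (0.91). Neutrophil markers moved with it, 5 of 7 tested higher and 0 lower, beside 17.3% and 17.8% of all genes. Their summed level over 13 markers was 34 to 38.3 CPM against 57.8 to 61.1 CPM, and none was at 0 in both groups. Their part in the result was not tested.

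Genes near the targeted locus were described separately, because DNA linked to an engineered allele can differ between a knockout and its control. Within 1 Mb of Kdm6b, 60 genes were tested, 10 were higher and 11 lower, which is 35% beside 35.1% of all genes. The largest differences there were those of Acap1, a regulator of membrane traffic, at 5.95, 6.8 and 6.12 CPM in JMJD3 WT and 14.8, 17.1 and 17.2 CPM in JMJD3 cKO (1.38, SE 0.11, adjusted p = 2.3e-14), and Mgl2, a lectin of alternatively activated cells, which fell from 1.83 ± 0.211 to 0.479 ± 0.149 CPM (-1.94). Farther out lay a pair of genes of the Nlrp1 inflammasome sensor family, named after their values were seen. Nlrp1c-ps, a pseudogene 1829 kb away (chromosome 11, 71242430 to 71285232), had 168, 111 and 125 counts in the JMJD3 WT libraries and 0 in each JMJD3 cKO library. With 3 counts in the whole cKO group taken as the limit of detection, the level was at least 171-fold lower. Nlrp1a, 1679 kb away, had 77, 71 and 89 counts against 1, 0 and 2, a ratio of 101 with an exact 95% counting interval of 34 to 491. The third member, Nlrp1b, lies between them and fell less, from 33.7 ± 0.836 to 24.3 ± 1.39 CPM (-0.47). The planned window was 1 Mb, and a wider one of 3 Mb takes in Nlrp1a and Nlrp1c-ps. Within 3 Mb of Kdm6b, 5 of 101 tested genes (4.95%) were called and at least 2-fold different, beside 2.21% of all genes. Nlrp1a and Nlrp1c-ps are among the 5, so this share is a description and no test of an excess. Linkage and the knockout itself cannot be told apart here.

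**Figure D4:**
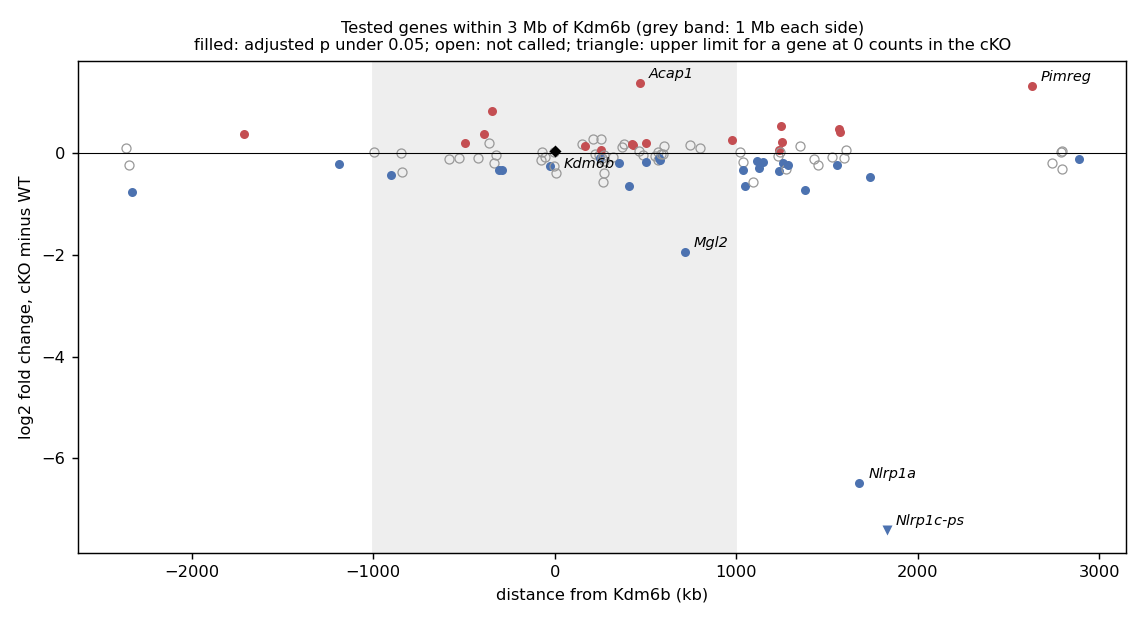
Log2 fold change (vertical axis, JMJD3 cKO minus JMJD3 WT) of the tested genes within 3 Mb of Kdm6b against their distance from it in kb (horizontal axis), filled where called. Most lie near 0; Nlrp1a at -6.49 and Nlrp1c-ps, drawn as a triangle at its upper limit of -7.42, lie apart.

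Levels in the other groups set these differences beside the series, scaled here over all 16 libraries, so that values of the JMJD3 groups differ slightly from those above. In WT naive libraries Rsad2 was at 306 ± 4.37 CPM, and TCM libraries held 202 ± 5.4 (WT), 118 ± 2.73 (TRAP1 KO, n = 4), 3610 ± 136 (JMJD3 WT) and 1280 ± 34.3 CPM (JMJD3 cKO). The JMJD3 cKO level thus stayed above that of every group outside the JMJD3 line. All 47 interferon-induced genes tested were higher in JMJD3 WT TCM than in WT TCM (median log2 difference 1.88). With TCM, Cxcl10 was at 14.6 ± 0.852 CPM in WT, 230 ± 17 in JMJD3 WT and 56.4 ± 2.74 in JMJD3 cKO, and Nos2 at 1.02 ± 0.217, 36.6 ± 1.5 and 11.4 ± 0.299 CPM. Top2a went the other way, at 84.7 ± 1.61, 17.9 ± 0.338 and 36.8 ± 0.384 CPM in the same order. Comparisons with JMJD3 WT TCM share those 3 libraries with the genotype comparison, and the JMJD3 libraries carried Xist and no Y-linked counts while the other 10 carried Y-linked Ddx3y (85.2 ± 0.312 CPM in WT naive), so that sex and line cannot be told apart.

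**Figure D5:**
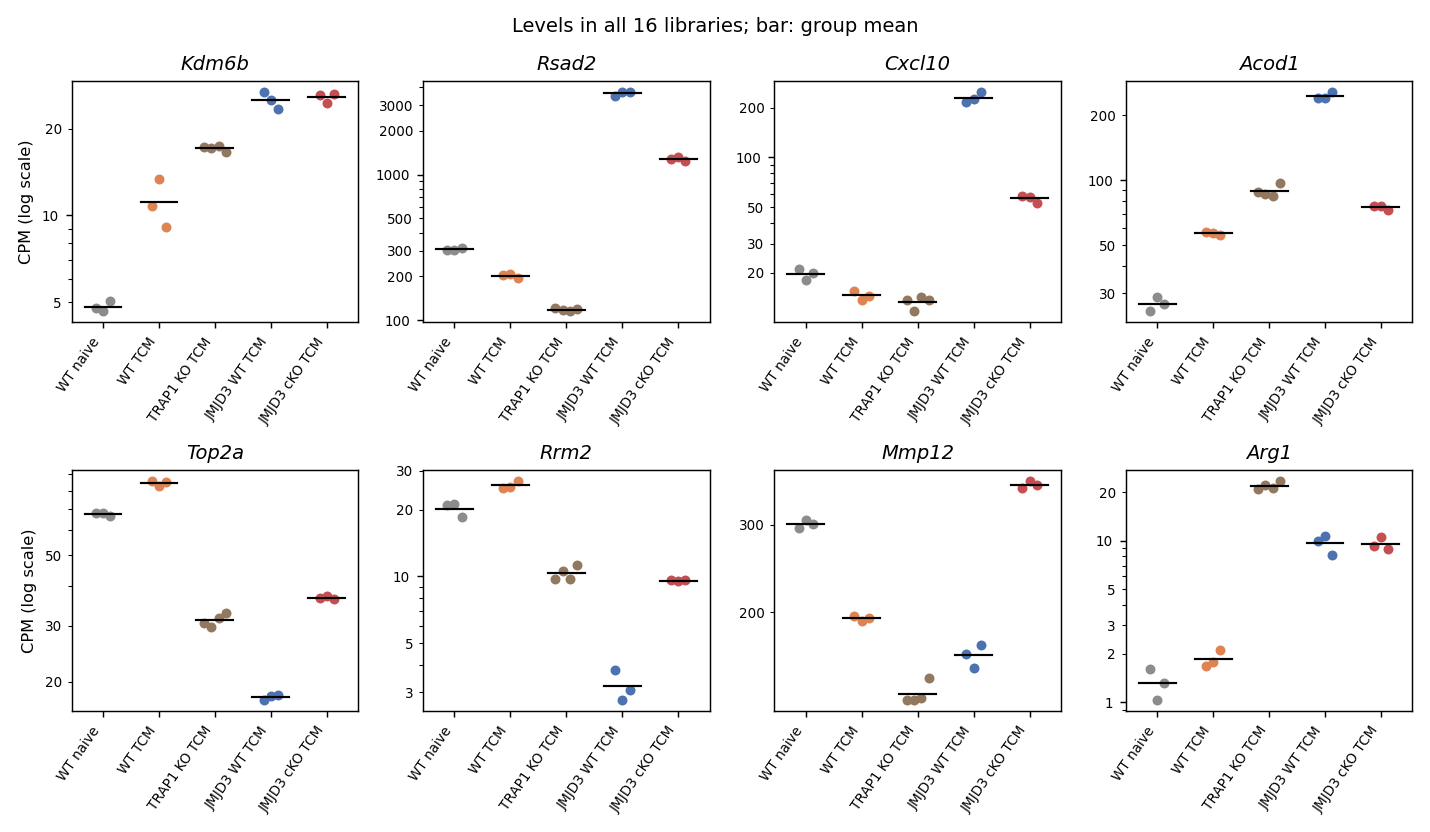
Level of 8 genes in all 16 libraries in CPM (vertical axes, log scale), grouped by genotype and medium (WT naive, WT TCM, TRAP1 KO TCM, JMJD3 WT TCM, JMJD3 cKO TCM), with a bar at each group's mean. For Rsad2, Cxcl10 and Acod1 the JMJD3 WT TCM libraries are the highest of all and JMJD3 cKO TCM lower; for Top2a and Rrm2 they are the lowest, with Top2a at 17.9 CPM in the mean.

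The genotype effect was also set against that of TRAP1 loss, which was measured against its own wild type and shares no library with it. Line and sex differ between the 2 comparisons, and so do starting levels. From WT TCM to JMJD3 WT TCM the median log2 difference was 1.88 for interferon-induced genes and -1.87 for mitosis genes. Differences between the effects therefore cannot be told apart from those of line, sex or starting level. The effects differed for 5519 of 14545 genes (37.9%, adjusted p under 0.05 for the difference in 1 fit of 16 libraries), 2839 of them more positive with JMJD3 loss and 2680 more negative. Mitosis genes had a median of 0.91 with JMJD3 cKO and -1.41 with TRAP1 KO, and the difference was called for 25 of 26. Top2a changed by 1.04 and -1.44 (difference 2.48, SE 0.07, adjusted p = 5.3e-49). Cholesterol synthesis had medians of 0.17 and -0.75, with 23 of 24 differences called. Interferon-induced genes had medians under 0 in both, -0.51 and -0.23, and 42 of 47 differed, 37 of them toward a deeper fall with JMJD3 cKO. Acod1 changed by -1.71 and 0.65 (difference -2.35, SE 0.06, adjusted p = 5.6e-47). Arg1 differed as well, at -0.01 with JMJD3 cKO and 3.58 with TRAP1 KO (difference -3.59, SE 0.18, adjusted p = 2.9e-32). For Lipg the difference did not pass (1.02, SE 0.58, adjusted p = 0.21), and TRAP1 KO TCM held it at 0.0377 ± 0.0253 CPM against 0.532 ± 0.142 in WT TCM.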

How the data were processed

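RNA was sequenced after ribosomal RNA removal with a strand-marking kit, per the labels' protocols. The authors deposited whole-number read counts per gene, not normalised. Build mm10 and the tools Bowtie2, HISAT, RSEM and StringTie are listed in the submitters' processing notes without versions or roles. The sources used here do not give the counter or its strand setting, so overlapping and antisense genes may share reads. Gene symbols and coordinates came from GENCODE M21 (GRCm38), which held 54495 of 54532 identifiers.

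Counts of the 6 JMJD3 libraries were filtered by edgeR's filterByExpr (minimum 10), scaled by TMM and tested with edgeR 4.0.16's robust quasi-likelihood test (R 4.3.3), adjusted over all tested genes by Benjamini-Hochberg. CPM are counts divided by the TMM-scaled library total, a unit that leaves gene length in. The JMJD3 effect was compared with the TRAP1 effect in 1 fit of 16 libraries. The edgeR tests of the JMJD3 comparison and of the difference from the TRAP1 effect were tried on simulated counts with known changes. The other steps were not. Alternatives were other filters, DESeq2 1.42.0, other scalings, thinning, a replicate block and leaving out each JMJD3 library. Named genes were Kdm6b, Kdm6a and Trap1, the 12 largest called changes per direction with at least 5 CPM and no overlap (pseudogenes and predicted or unnamed loci left out), up to 3 called members per list, fixed state markers and called genes within 1 Mb of Kdm6b; others are pathway members or exceptions chosen after their values were seen. Some single-gene results are not reported here. Members and lists were chosen with earlier results of these data known. Totals were 15815651 to 22426820 counts, and counting intervals cover counting error only.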

Additional observations from a re-analysis of the deposited data

Results flagged for a closer look

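The 4 TRAP1 KO TCM libraries were examined for a library far from the other three in 18 genes, leaving out Ifnb1, which had 0 counts in all 4. In 2 genes there was one, and chance gives this in about 1 of 20 such groups. Mmp12 was at 133, 133 and 134 CPM in replicates 1 to 3 and at 147 CPM in replicate 4. Lipg was at 0.0535, 0.0475 and 0.0497 CPM in replicates 1 to 3 and at 0 CPM in replicate 4, a level of about 1 read. The groups of 3 libraries, among them both JMJD3 groups, are too small for this examination.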

How the results depend on the processing

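The replicate numbers are shared by the groups, but libraries with the same number did not deviate together (r = -0.01, -0.05 and -0.09), so they were not treated as pairs. With the replicate number as a block 2246 genes were higher and 2333 lower, 113 and 185 of them at least 2-fold, and 5350 genes differed between the JMJD3 and TRAP1 effects. For that difference the block ended the calls of Lhx2 (adjusted p = 0.053) and Clic5 (adjusted p = 0.1) and gave one for Acap1 (0.67, adjusted p = 0.019). With a minimum of 50 counts the at least 2-fold calls fell to 37 higher and 87 lower, since that filter leaves 10673 genes and removes weakly expressed ones. Without 1 JMJD3 library, 1892 to 2115 genes were higher and 2116 to 2320 lower, 99 to 123 and 188 to 201 at least 2-fold. The JMJD3 and TRAP1 effects then differed for 5147 to 5357 genes, and no library of the other groups was left out. DESeq2's Wald test called 1638 higher and 2055 lower, and no filter on low counts 2482 and 2040. The other settings (DESeq2's size factors, 1 fit of 16 libraries, thinning) gave 2256 to 2492 higher and 2329 to 2553 lower. No called named gene changed direction, and for named genes that were not called the direction was not compared. Of 217 called named genes 206 were called in every setting and 11 were lost in at least 1: Cdkn2b, Ciita, mt-Nd3, Malat1, Gabarap, Phf23, Gps2, Trp53, Eif4a1, E2f8 and Egr2. The median of the alternative activation list ran from -0.13 to 0.08. Genes of a few CPM rest on few counts, and with 3 libraries a group small differences in them were not detectable at this depth.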

Other observations

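Lipid-handling genes that mark foamy macrophages changed in both directions, 13 of 22 higher and 7 lower in the JMJD3 cKO libraries (median log2 fold change 0.13), beside 17.3% higher and 17.8% lower of all genes tested. Ctsl, a lysosomal protease, was at 3020, 3010 and 3090 CPM in JMJD3 WT and at 4250, 4490 and 4370 CPM in JMJD3 cKO (0.52, SE 0.02, adjusted p = 8.4e-23, edgeR). Lpl, which frees fatty acids from lipoproteins, rose from 757 ± 22.5 to 1100 ± 21 CPM (SD, n = 3). The droplet coat gene Plin2 fell from 1470 ± 33.3 to 1170 ± 5.33 CPM, and the cholesterol exporter Abcg1 from 530 ± 6.01 to 350 ± 6.63 CPM, within a list of lipid efflux genes with 9 of 17 lower and 2 higher. Efferocytosis genes, which serve the uptake of dying cells, had 9 of 18 higher and 5 lower. The bridging protein Mfge8 rose from 61.3 ± 3.96 to 110 ± 0.707 CPM (0.85), whereas the receptor Axl fell from 352 ± 8.6 to 248 ± 4.95 CPM (-0.51).

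Matrix and vessel genes were evenly divided, with 8 of 25 matrix genes higher and 8 lower, and 5 of 21 angiogenic and coagulation genes higher and 7 lower, beside the same shares of all genes (17.3% and 17.8%). Thbs1, a matrix glycoprotein that restrains vessel growth, was at 828, 881 and 867 CPM against 393, 377 and 373 CPM (-1.17, SE 0.03, adjusted p = 2.1e-32, edgeR). Mmp14, a membrane protease, fell from 64.1 ± 3.49 to 32.3 ± 1.95 CPM, and the secreted gelatinase Mmp9 rose from 16 ± 2.51 to 27.6 ± 0.543 CPM. The scavenger receptor Marco fell from 26.8 ± 2.31 to 10.7 ± 0.605 CPM (-1.32). Osteoclast markers were at a summed 224 to 230 CPM in JMJD3 WT and 292 to 301 CPM in JMJD3 cKO, with the proton pump subunit Atp6v0d2 at 73.4 ± 2.7 and 125 ± 1.07 CPM. Megakaryocyte markers were at 173 to 195 CPM against 290 to 291 CPM, nearly all of it the platelet chemokine Pf4 (175 ± 11 and 273 ± 1.77 CPM). The erythroid genes Hba-a1, Hba-a2, Hbb-bs and Car1 had 0 counts in these 6 libraries.

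Levels of the Nlrp1 genes also differed between the groups outside the JMJD3 line. With scaling over 16 libraries, the WT naive level of Nlrp1c-ps was 30.2 ± 1.05 CPM, and the levels with TCM were 28.3 ± 1.83 (WT), 10.3 ± 0.489 (TRAP1 KO, n = 4) and 8.69 ± 1.49 CPM (JMJD3 WT). Nlrp1a was at 14.7 ± 1.67, 16.1 ± 1.65, 8.19 ± 0.838 and 5.12 ± 0.49 CPM in the same groups. Elsewhere on chromosome 11, the noncoding gene 2610507I01Rik had 83 counts in all JMJD3 WT libraries and 4 in all JMJD3 cKO libraries, a ratio of 26.4 with an exact 95% counting interval of 9.94 to 99.2. It was at 7.89 ± 1.4 CPM in WT TCM and 0.133 ± 0.129 CPM in TRAP1 KO TCM. Among windows of 5 Mb, 170 to 175 Mb of chromosome 1 held the most genes called and at least 2-fold different. All 8 were lower, of 85 tested, beside 1.37% of all genes, among them the interferon-inducible Ifi205 and Ifi202b. This window was picked for its count, and 85 to 90 Mb of chromosome 1 held 7 such lower genes of only 46 tested. A cause of these local differences was not tested.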
